A study of Mus musculus with 12 samples.

Results

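The 10 genes chosen as raised in somatic cells of gonads lacking the -KTS variant of WT1 were Ecm1, Cck, Smoc2, Gm2694, Shisa3, Capn6, Adcy7, Tmem178, Il33 and Cd55. Smoc2 was higher than WT in XX and lower in XY, and Gm2694 was higher in XX and overlapped WT in XY. All 10 were chosen by symbol for their level in -KTS KO gonadal somatic cells. Every difference between -KTS KO and WT given for them in these cells is therefore a description with no test. The choice names no threshold. They are 10 of 32285 features in the deposited tables and 10 of the 17752 genes with enough counts to be tested in gonadal somatic cells, and all 10 passed that filter. All 10 were also among the 3000 most variable genes used to cluster the cells.

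Gonads were collected at embryonic day 12 from wild-type (WT), -KTS KO and +KTS KO mice of both sexes and profiled by droplet-based single-cell RNA sequencing. The 6 groups are XX WT, XY WT, XX -KTS KO, XY -KTS KO, XX +KTS KO and XY +KTS KO, with 2 libraries each and 12 in all. The mouse lines were held on a mixed B6CBAF1/JRj background. The -KTS KO embryos were homozygous for a Wt1 allele that does not make the -KTS variant, and the +KTS KO embryos were homozygous for the Wt1 allele of the Frasier line, which does not make the +KTS variant. Neither allele is restricted to a cell type by a promoter or a Cre. Gonads of several embryos were pooled in the -KTS KO libraries but not said to be in the others, and the somite stages of the libraries of a group were not identical.

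WT1 is a zinc finger protein needed for the gonad to form, and alternative splicing adds or omits the amino acids KTS between its last zinc fingers. The -KTS form binds DNA and regulates transcription, whereas the +KTS form binds DNA less well and associates with RNA. In the embryonic gonad, the coelomic epithelium gives rise to supporting cells, which become Sertoli cells in the testis and pre-granulosa cells in the ovary, and to interstitial progenitors of the steroid-producing lineage. A stroma of mesenchymal cells lies between them.

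Library totals ran from 108111924 to 147968666 unique molecular identifiers (UMIs, each standing for 1 captured transcript). Of 103730 barcodes, 76976 were kept, of which 1.93% carried a barcode sequence also found in another library. They fell into 37 clusters, 28 of them gonadal somatic, with 66208 gonadal somatic cells (4085 to 7708 per library). Levels are given as CPM, a gene's UMIs scaled to the same total of UMIs in each set of summed cells. Wt1 was at 158 to 309 CPM in the 12 libraries, but reads of transcript ends do not separate its splice variants and so do not check the genotype. Xist ran from 537 to 749 CPM in XX libraries and did not exceed 0.156 CPM in XY ones. Markers of Sertoli cells (7 genes) summed to 1408 to 1618 CPM in XY WT and to 20.2 to 246 CPM elsewhere. The replicates of XY +KTS KO differed from each other. Replicate 1 held 47.6% of its gonadal somatic cells in a pre-granulosa-like cluster that took 0.132% of replicate 2. It held 17.0% in cluster 19, which took 0.0439% of replicate 2. Cluster 1 held 0.839% of replicate 1 but 34.8% of replicate 2, against 40.5 and 31.7% of the XX +KTS KO libraries. Replicate 2 held 10.5% of its cells in a cluster led by Hoxc10 and Hoxa10. A further 1.40% lay in a cluster led by Actc1 and Myog, genes of muscle. Replicate 2 of XX -KTS KO held 23.8% of its cells in cluster 15, unnamed and at 0.219 of the median depth of the cells' own libraries, against 3.16% in replicate 1, and 3179 of its 4085 gonadal somatic cells had at least 5000 UMIs. In XX +KTS KO replicate 2, 2.99% of the cells lay in a cluster whose cells were 97.3% from -KTS KO libraries, against 0.013% in replicate 1.

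The secreted proteins come first. Ecm1 encodes extracellular matrix protein 1, a glycoprotein that binds other matrix components. It was at 7.35 and 8.86 CPM in the XX WT libraries and 4.77 and 6.05 CPM in the XY WT libraries. It was at 133 and 113 CPM in XX -KTS KO and at 129 and 110.3 CPM in XY -KTS KO, so that the 4 -KTS KO libraries lay far above the 4 WT libraries with no overlap. The log2 fold change to the WT of the same sex was 3.99 in XX and 4.44 in XY. In +KTS KO, replicate 1 was near WT, at 6.07 CPM in XX and 4.07 CPM in XY, and replicate 2 was higher, at 32.3 CPM in XX and 18.4 CPM in XY.

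Smoc2 encodes a secreted calcium-binding protein of the SPARC family. It was at 1.47 and 1.38 CPM in the XX WT libraries and, in those of XY WT, at 50.6 and 37.2 CPM, a difference between the sexes that is tested below. In -KTS KO it was at 26.3 and 18.8 CPM in XX and at 23.7 and 34.9 CPM in XY. Both XX -KTS KO libraries therefore lay above XX WT (log2 fold change of 4.05), while both XY -KTS KO libraries lay below XY WT (-0.633). In +KTS KO, Smoc2 was at 13.6 and 18.1 CPM in XX, between the WT and -KTS KO libraries, and at 9.77 and 12.2 CPM in XY, below both.

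Cck encodes cholecystokinin, a peptide hormone of gut and brain that is cut from a longer precursor. The XX WT libraries held it at 3.22 and 3.64 CPM and those of XY WT at 35.1 and 15.3 CPM. The -KTS KO libraries were at 38.0 and 78.7 CPM (XX) and at 35.1 and 65.6 CPM (XY). The log2 fold change to WT was 4.14 in XX and 0.93 in XY, where the lower -KTS KO library and the higher WT library were level. All 4 +KTS KO libraries held 2.19 to 3.77 CPM, the level of XX WT.

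Il33 encodes interleukin-33, a cytokine of the interleukin-1 family kept in the nucleus of stromal and barrier cells. It was at 0.91 and 2.05 CPM in the XX WT libraries, against 0.47 CPM in each of XY WT. It was at 24.4 and 10.6 CPM in XX -KTS KO and at 20.8 and 15.2 CPM in XY -KTS KO, log2 fold changes of 3.63 and 5.22. The +KTS KO libraries held 0.58 to 1.62 CPM.

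The membrane proteins follow. Cd55 encodes decay-accelerating factor, which protects cells from complement. The XX WT libraries held it at 15.2 and 17.3 CPM and those of XY WT at 44.3 and 29.2 CPM. In -KTS KO it was at 72.8 and 92.9 CPM (XX) and at 140.2 and 147 CPM (XY). The 4 -KTS KO libraries lay above the 4 WT libraries (log2 fold changes of 2.41 in XX and 1.91 in XY), and the 4 +KTS KO libraries lay below them, at 1.69 to 3.30 CPM. Mice carry a close copy of this gene, Cd55b, which held at most 33 UMIs over the 2 libraries of any of the -KTS KO and WT groups, and how reads shared by the copies were assigned is not given in the sources used here.

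Shisa3 encodes a membrane protein of the endoplasmic reticulum, of a family known to hold back receptors of Wnt and FGF signals. The XX WT libraries held it at 2.12 and 1.60 CPM and those of XY WT at 0.56 and 0.50 CPM. The -KTS KO libraries were at 28.6 and 15.6 CPM (XX) and at 30.3 and 32.4 CPM (XY). The log2 fold change was 3.63 in XX and 5.83 in XY. In +KTS KO the replicates differed, with 0.39 and 7.34 CPM in XX and 0.32 and 1.47 CPM in XY.

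Tmem178 encodes a membrane protein of the endoplasmic reticulum. The XX WT libraries held it at 8.40 and 8.37 CPM and those of XY WT at 2.51 and 3.27 CPM. In -KTS KO it was at 48.9 and 49.2 CPM (XX) and at 56.9 and 61.7 CPM (XY). Both -KTS KO groups were above both WT groups, and the log2 fold change was 2.61 in XX and 4.33 in XY. The +KTS KO libraries held 4.45 to 7.19 CPM.

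Adcy7 encodes an adenylyl cyclase, the enzyme that makes cyclic AMP, and is known from immune cells. It was at 0.22 CPM in both libraries of XX WT and at 10.8 and 23.0 CPM in XY WT. The -KTS KO libraries were at 19.6 and 23.8 CPM in XX and at 20.8 and 40.7 CPM in XY, log2 fold changes of 6.68 and 0.85. The +KTS KO replicates were far apart in both sexes, with 24.1 and 0.29 CPM in XX and 48.9 and 0.23 CPM in XY. Both XX WT libraries and replicate 2 of both +KTS KO groups were thus low, at 15 to 24 UMIs each, and the other 8 libraries were high, at 807 to 3680 UMIs.

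Of the remaining genes, Capn6 encodes a calpain that lacks protease activity and stabilises microtubules. The XX WT libraries held it at 9.0 and 11.5 CPM and those of XY WT at 15.9 and 10.7 CPM. In -KTS KO it was at 104 and 115 CPM (XX) and at 106 and 117 CPM (XY). The 4 -KTS KO libraries were all above the 4 WT libraries, with log2 fold changes of 3.48 in XX and 3.02 in XY. The +KTS KO libraries held 4.03 to 10.1 CPM.

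Gm2694 is annotated as a long intergenic non-coding RNA at chr8:87460469-87525554 (plus strand). It contains the protein-coding gene Cbln1, which lies at chr8:87468405-87472609 (minus strand) and encodes a secreted synaptic organiser. Whether counting used the strand is not given in the sources used here, so reads of the 2 genes cannot be told apart with certainty. Gm2694 was at 2.09 and 1.92 CPM in the XX WT libraries, against 105 and 55.5 CPM in those of XY WT. It was at 29.2 and 60.4 CPM in XX -KTS KO and at 29.7 and 58.3 CPM in XY -KTS KO, above XX WT (log2 fold change of 4.54) and overlapping XY WT (-0.93). Cbln1 followed it, at 1.19 to 1.44 CPM (XX WT), 30.9 and 44.7 CPM (XY WT) and 11.1 to 23.7 CPM in the 4 -KTS KO libraries.

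Counted over the 10 genes, both -KTS KO libraries lay above both WT libraries for 10 genes in XX and 7 in XY, Cck among the 7 by a gap under 0.1 CPM. Over all genes tested, 26.6% in XX and 32.9% in XY did so, and nothing is read from the counts because this contrast chose the genes. In XY the exceptions were Smoc2, Gm2694 and Adcy7. The comparisons of each mutant with WT share the WT libraries.

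**Figure D1:**
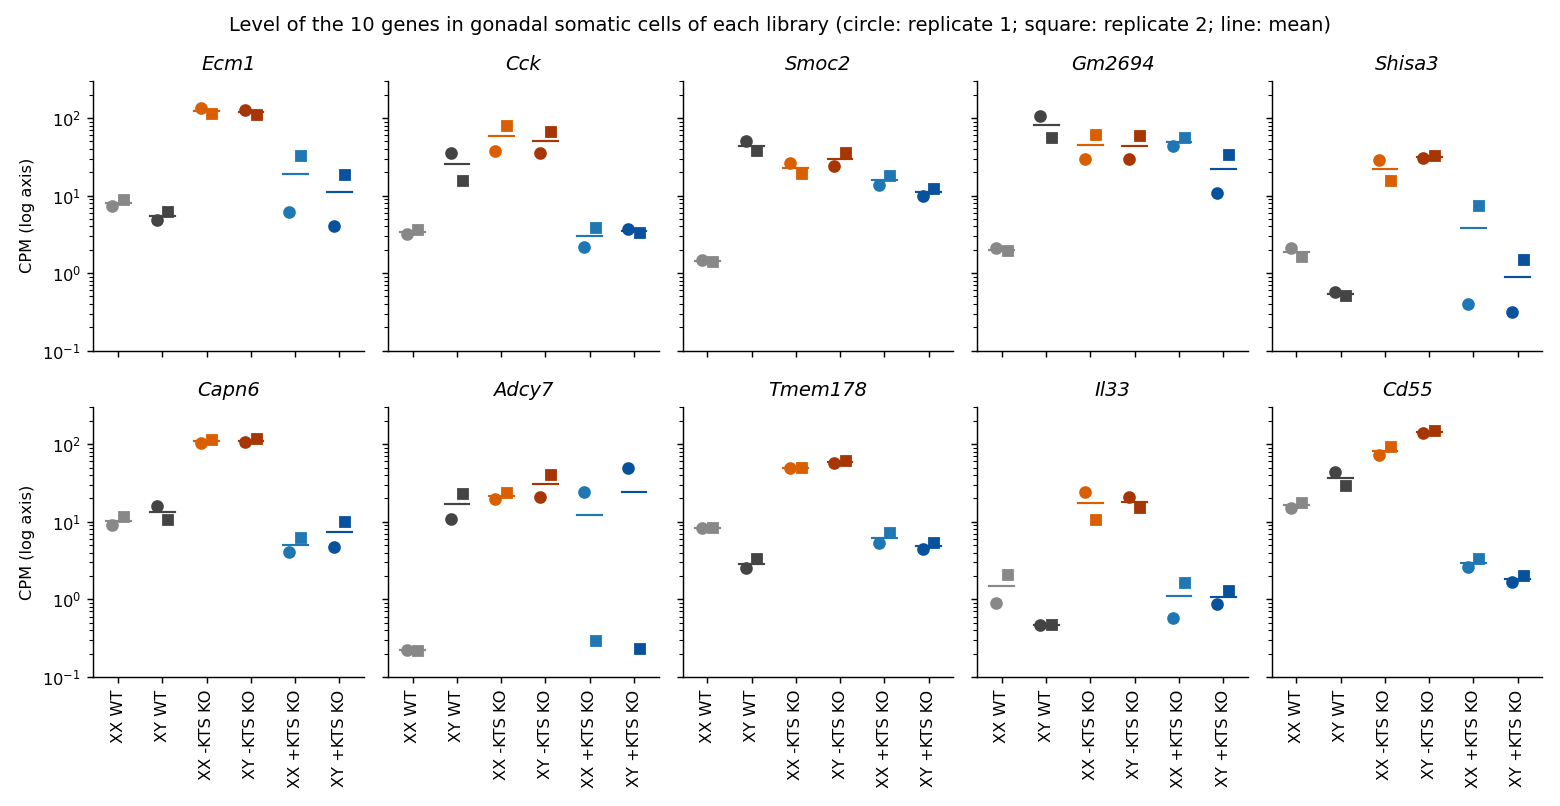
Level of the 10 genes in gonadal somatic cells of the 12 libraries, in CPM on a log axis, by group (circle for replicate 1, square for replicate 2, line for the mean). Ecm1, Shisa3, Capn6, Tmem178, Il33 and Cd55 stood highest in the 4 -KTS KO libraries, whereas the -KTS KO libraries did not all exceed XY WT for Smoc2, Gm2694 and Adcy7.

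Proximal promoters were looked at because Ecm1 and Shisa3 had nearly the same profile over the 12 libraries (Pearson r = 0.98 on the log2(CPM + 1) scale, libraries sharing genotype and sex, so that the coefficient is a description). Promoter sequence, from 250 bases before to 50 bases after the annotated start, was taken from RefSeq (GRCm38.p6) and was found for 9 of the 10 genes, with 12 promoters in all, some genes having several starts. Smoc2 is the gene without an entry. The promoters of Ecm1 (chr3:95739520-95739819, minus strand), Shisa3 (chr5:67607633-67607932, plus strand) and Capn6 (chrX:143827363-143827662, minus strand) are shown because Ecm1 and Shisa3 are that pair and Capn6 is the gene with the stricter motif below. Capitals mark matches, on either strand, to GNGNGGGNG, a loose form of the G-rich motif of WT1 and EGR proteins, or to TATAAA, the core promoter motif.
Ecm1: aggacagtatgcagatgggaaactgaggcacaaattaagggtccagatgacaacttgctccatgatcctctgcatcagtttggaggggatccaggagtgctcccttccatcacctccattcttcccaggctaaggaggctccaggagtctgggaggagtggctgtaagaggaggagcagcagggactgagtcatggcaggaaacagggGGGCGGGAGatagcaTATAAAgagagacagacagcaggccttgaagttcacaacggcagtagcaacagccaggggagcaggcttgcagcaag
Shisa3: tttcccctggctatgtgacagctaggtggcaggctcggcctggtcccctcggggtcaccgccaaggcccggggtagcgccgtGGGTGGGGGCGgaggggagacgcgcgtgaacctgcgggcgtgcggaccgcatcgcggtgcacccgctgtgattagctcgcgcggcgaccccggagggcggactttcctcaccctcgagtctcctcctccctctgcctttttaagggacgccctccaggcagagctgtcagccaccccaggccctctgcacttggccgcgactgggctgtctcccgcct
Capn6: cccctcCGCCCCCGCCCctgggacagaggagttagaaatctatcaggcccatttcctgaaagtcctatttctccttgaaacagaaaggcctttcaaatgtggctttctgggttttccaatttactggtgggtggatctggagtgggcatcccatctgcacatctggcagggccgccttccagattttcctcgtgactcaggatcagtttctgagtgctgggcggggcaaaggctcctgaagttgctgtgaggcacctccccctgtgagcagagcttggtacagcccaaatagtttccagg

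The letters GNGNGGGNG were found in 10 of the 12 promoters and in 39.6% of 32851 mouse promoters of the same length. The 12 promoters held 42.3 to 77.7% G and C, against a median of 52.7% over all promoters. Adcy7 and Il33 gave more than 1 promoter each. The part of base composition in the matches was not tested. The stricter GCGNGGGCG, every match of which is also a match of GNGNGGGNG, was found in the promoter of Capn6 and in 5.55% of all promoters. TATAAA was found in 3 of the 12, those of Ecm1 and Il33 (2 starts), and in 13.6% of all promoters. A match is a description of letters and not a binding site.

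Cell classes were assigned from marker genes. Stromal-like cells join the clusters with mesenchymal and interstitial progenitor markers. Unnamed cells are those whose clusters passed no marker list, or passed one without being named by it. The latter had pre-granulosa markers without Foxl2 or Fst, leading genes with more markers of another type, or shallow cells with no marker of the type among the leading genes. Unnamed cells may therefore carry the markers of a type. In -KTS KO, stromal-like cells were 47.4% of gonadal somatic cells in XX and 51.7% in XY. Cluster 0, led by Sfrp2 and Ecm1, and cluster 13, led by Pclaf, were mesenchymal-like and held 27.8 to 40.9% and 10.7 to 14.8% of the cells of the 4 libraries. Cluster 5, coelomic epithelial-like, held 20.5 to 25.1%, and cluster 8, unnamed and led by Wfdc13 and Cpa1, held 16.1 to 22.8%. These clusters were 96.6 to 99.7% -KTS KO cells, and member genes are among the leading genes of some of them, and other clusters (such as 4 and 12, interstitial progenitor-like) hold the class in WT. Mesenchymal markers (7 genes, none at 0 in any group) summed to 465 to 625 CPM over the gonadal somatic cells of the -KTS KO libraries, 156 to 258 CPM in WT and 213 to 358 CPM in +KTS KO. Pre-granulosa markers (6 genes) summed to 154 to 273 CPM in XX -KTS KO against 985 to 1010 CPM in XX WT, pre-supporting markers (6 genes, at least 1 of them at 0 in each of these XX libraries) to 346 to 382 against 1196 to 1391 CPM, and Sertoli markers in XY -KTS KO to 39.3 to 40.9 CPM. Fewer cells of a type and less RNA per cell cannot be told apart from summed libraries alone. By cluster, pre-granulosa-like cells made up 40.9 and 38.6% of the somatic cells in the XX WT libraries. Their share was 0.114 and 0.0245% in those of XX -KTS KO. Sertoli-like cells made up 26.4 and 25.7% in XY WT, against 0.0394 and 0% in XY -KTS KO. The part of these markers' cell types in the levels above was not tested.

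Stromal-like cells held the largest share of a gene's somatic UMIs in all 4 -KTS KO libraries for 7 of the 10 genes: Ecm1, Cck, Shisa3, Capn6, Tmem178, Il33 and Cd55. Clustering on log-normalized counts gave 5 such genes (Cck and Tmem178 no longer), a resolution of 1.2 gave 6 (Tmem178 no longer) and clustering without the 10 genes gave 7. Of Ecm1 UMIs they held 76.6 to 88.8%, of Il33 80.2 to 88.5% and of Shisa3 70.3 to 88.8%, well beyond their share of cells. Ecm1 was at 182 to 223 CPM in stromal-like cells of -KTS KO, against 4.52 to 27.1 CPM in those of WT. The stromal-like share of Cd55 UMIs was 60.1 to 67.5%, that of Cck 54.2 to 58.6% and that of Capn6 48.8 to 56.6%, the last close to the share of cells. Stromal-like cells were 39.1 to 55.8% of the gonadal somatic cells of these libraries. In each of them Cck was at a higher level in unnamed cells (50.6 to 115 CPM) than in stromal-like cells (38.7 to 93.9 CPM).

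Capn6 was spread evenly, at 94.1 to 115 CPM in coelomic epithelial-like cells, 111 to 118 CPM in stromal-like cells and 97.4 to 121 CPM in unnamed cells of -KTS KO. Tmem178 was higher in coelomic epithelial-like cells, at 60.9 to 85.5 CPM, than in stromal-like cells, at 38.0 to 47.7 CPM, with no overlap between the libraries. Gm2694 was split between these classes, with 37.2 to 46.7% of its UMIs in coelomic epithelial-like and 33.8 to 42.9% in stromal-like cells. Smoc2 and Adcy7 differed from the others in that unnamed cells held the largest share of their UMIs in each -KTS KO library. Unnamed cells (clusters 8 and 15 among them, with Smoc2 at 77.7 and 8.50 CPM) held 58.2 to 74.4% of Smoc2 and 47.6 to 59.5% of Adcy7 UMIs (54.9 to 59.5% without XX -KTS KO replicate 2).

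**Figure D2:**
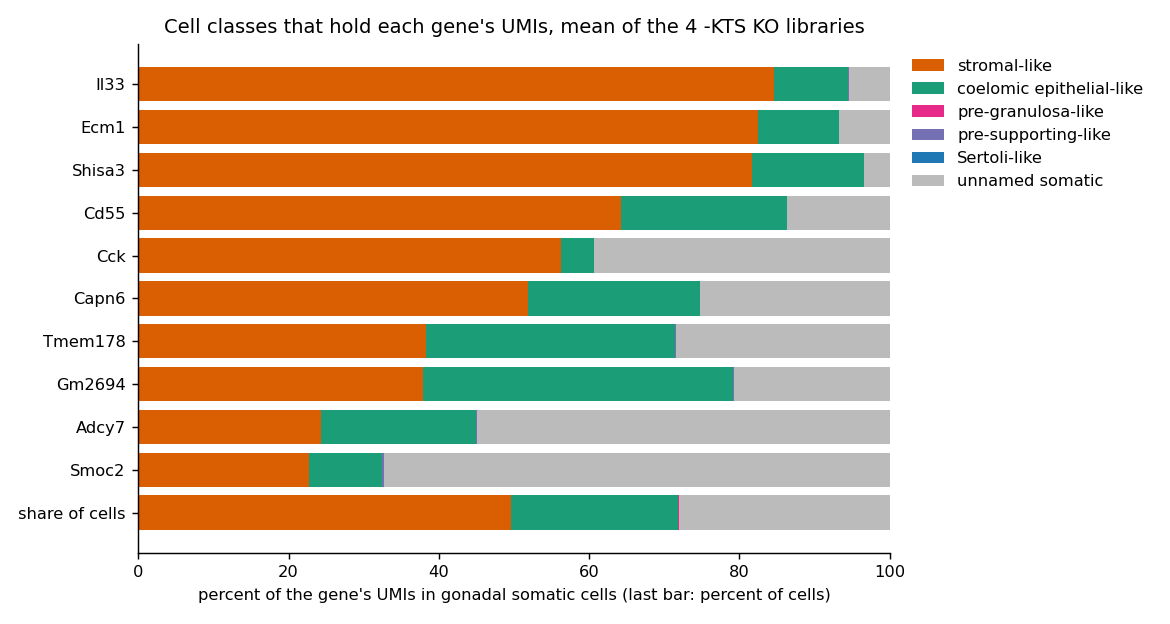
Share of each gene's gonadal somatic UMIs in each cell class, mean of the 4 -KTS KO libraries, with the share of cells in the last bar. Stromal-like cells held over 80% of Il33, Ecm1 and Shisa3 UMIs, and unnamed cells the largest share of Smoc2 and Adcy7 UMIs.

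In WT, stromal-like cells held 52.5 to 90.9% of Cd55 UMIs in the 4 libraries and, in both XY libraries, the largest share of Cck (92.3 and 80.5%), Shisa3 (92.9 and 68.8%, of few UMIs), Capn6 (81.8 and 66.6%) and Gm2694 UMIs, the last at 153 and 92.1 CPM. Smoc2 in XY WT was at 60.2 and 62.4 CPM in Sertoli-like cells, 108 and 57.6 CPM in pre-supporting-like cells and 37.7 and 9.92 CPM in stromal-like cells. The largest share of its UMIs was in stromal-like cells in replicate 1 (46.1%) and in Sertoli-like cells in replicate 2 (46.3%). Tmem178 in XX WT was highest in pre-supporting-like cells, at 26.2 and 21.2 CPM, and was at 1.49 and 2.06 CPM in stromal-like cells. In XX +KTS KO, Gm2694 was at 88.4 and 93.7 CPM in coelomic epithelial-like cells. In XX +KTS KO replicate 2, 175 cells lay in clusters 0, 5, 8 and 13, and 1 of them had a barcode also found in a -KTS KO library. Outside those clusters, Ecm1 was at 16.4 CPM (32.3 CPM with them) and Shisa3 at 2.16 CPM (7.34 CPM with them).

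Each cell was then thinned to 5000 UMIs so that cells of unequal depth could be compared. Of gonadal somatic cells, 26.6 to 36.4% held UMIs of 3 or more of the 10 genes in the -KTS KO libraries, against 0.24 to 6.21% in WT and 0.12 to 0.79% in +KTS KO. Before thinning, a UMI of Capn6 was found in 65.9% of the gonadal somatic cells of XX -KTS KO and 67.3% of those of XY -KTS KO (medians of 14754 and 13958 UMIs), and after thinning in 39.0% and 38.8%. In erythroid-like cells, which should lack Capn6, the shares were 13.1% and 15.1% before and 2.78% and 7.57% after thinning (medians of 16883 and 32188 UMIs), and serve as the background. That of XX before thinning was 1.43% in replicate 1, from 1 UMI, and 24.7% in replicate 2. Cells with fewer than 5000 UMIs were left out, 1077 of 8477 in XX and 442 of 9922 in XY -KTS KO.

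**Figure D3:**
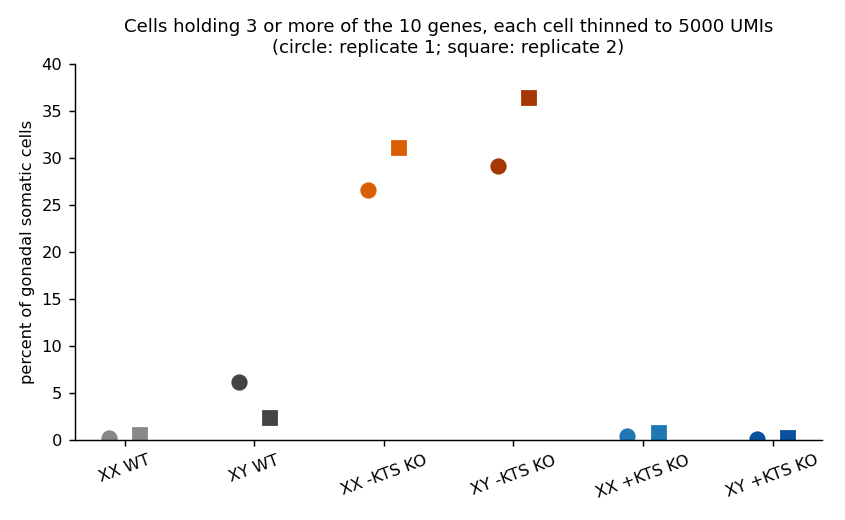
Percent of gonadal somatic cells holding UMIs of 3 or more of the 10 genes in each library, after thinning each cell to 5000 UMIs. The -KTS KO libraries lie at 26.6 to 36.4% and every other library at or below 6.21%.

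Loss of +KTS asks whether the genes also move when the other variant is missing. The +KTS KO libraries did not enter the choice of the genes, but the WT libraries they are compared with did. In XX +KTS KO against XX WT, 3 of the 10 genes passed the test (the quasi-likelihood test of edgeR, p-values adjusted over all genes by Benjamini-Hochberg), where 4.97% of all genes did. Smoc2 rose (log2 fold change of 3.51, SE 0.30, adjusted p = 0.000967) and Gm2694 rose (4.64, SE 0.67, adjusted p = 0.00636). Cd55 fell, by 2.42 on the log2 scale (SE 0.25, adjusted p = 0.00186). For the other 7 the adjusted p was 0.188 to 0.911, but Adcy7 (5.87) passed with DESeq2 (adjusted p = 0.0241) and with no filter on low counts (adjusted p = 0.0408 by edgeR), although without replicate 1 it was at 0.387, and Capn6 (-0.972) passed without the Hoxc10, muscle and 2 further small clusters (adjusted p = 0.0469 by edgeR). The direction of Ecm1 and Shisa3 there rested on replicate 2: without it their log2 fold changes were -0.323 and -2.14, against 1.25 and 1.05. Gm2694 did not pass without XX WT replicate 1 or 2, where its log2 fold changes were 4.73 and 4.55 (adjusted p = 0.0619 and 0.0701), nor did Smoc2 in stromal-like cells alone (2.34, adjusted p = 0.115 by edgeR), where 2 of the 10 genes and 1.03% of all genes passed.

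In XY +KTS KO against XY WT, 4 of the 10 genes passed, where 12.2% of all genes did. Cd55 fell by 4.41 on the log2 scale (SE 0.27, adjusted p = 4.91e-05), Cck by 2.97 (SE 0.50, adjusted p = 0.00619) and Smoc2 by 2.09 (SE 0.28, adjusted p = 0.0021). Tmem178 rose slightly (0.69, SE 0.17, adjusted p = 0.0327), but not in stromal-like cells alone, where its log2 fold change was -0.815. Tmem178 did not pass without either XY WT library or replicate 2 of XY +KTS KO (adjusted p of 0.0628 to 0.198), and Smoc2 was at -1.04 in stromal-like cells alone (adjusted p = 0.207), where 3 of the 10 genes and 9.18% of all genes passed. Gm2694 was lower by 1.93 without passing (adjusted p = 0.0572), and passed with a replicate block (adjusted p = 0.0456), with DESeq2 (adjusted p = 0.0244), with no filter (adjusted p = 0.00754), in stromal-like cells alone (-2.78, adjusted p = 0.011) and without XY +KTS KO replicate 2 (-3.08, adjusted p = 0.0151). Leaving out the same clusters took Capn6 to -1.68 (adjusted p = 0.00292) from -0.92, and its level in that library from 10.1 to 4.11 CPM and that of Ecm1 from 18.4 to 8.97 CPM.

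The effect of losing +KTS differed between the sexes for 4 genes (interaction test, where 3.84% of all genes passed). The interaction takes in the WT sex difference given below, and all 4 genes passed that test too. None of the 10 genes passed between the +KTS KO sexes, where 0.0394% of all genes did and 2 of the 10 had an unadjusted p under 0.05. With 2 libraries in a group, not passing does not show equal levels. The interaction was not separated from the WT difference. The difference of the log2 fold changes, XX minus XY, was 5.60 for Smoc2 (SE 0.41, adjusted p = 0.000379), 6.57 for Gm2694 (SE 0.88, adjusted p = 0.00563) and 1.99 for Cd55 (SE 0.34, adjusted p = 0.0156), and it was -1.07 for Tmem178 (SE 0.24, adjusted p = 0.0418). Smoc2 thus rose in XX and fell in XY, Gm2694 rose in XX, and Cd55 fell in both sexes and more so in XY. In stromal-like cells alone Gm2694 passed the interaction, where 0.294% of all genes did, and Smoc2 (3.38, adjusted p = 0.13) and Cd55 (1.97, adjusted p = 0.0875) did not. Tmem178 turned to 1.59 there (adjusted p = 0.549 by edgeR). The interaction of Tmem178 was lost without any of 7 of the 8 libraries (adjusted p of 0.0501 to 0.156), with RLE size factors (0.0519) and with all kept cells summed (0.154), and that of Cd55 without either XX WT library or XX +KTS KO replicate 2 (0.0606 to 0.07). Cck missed the interaction (adjusted p = 0.056) but passed with DESeq2 (2.84, adjusted p = 0.000377), with no filter (0.00303), without XY WT replicate 2 (0.0191) and without the small clusters (0.0496). Cd55 was the one gene of the 10 at a lower level in all 4 +KTS KO libraries and at a higher level in all 4 -KTS KO libraries than in all 4 WT libraries, and without the same small clusters Capn6 was so too (at most 6.18 CPM in +KTS KO).

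Sex differences in WT were found for 5 of the 10 genes, where 13.1% of all genes passed. The WT libraries entered the choice of the genes, so nothing is read from this count. Smoc2 (log2 difference, XX minus XY, of -5.03, SE 0.32, adjusted p = 3.94e-05), Gm2694 (-5.42, SE 0.69, adjusted p = 0.00137), Cck (-2.97, SE 0.50, adjusted p = 0.0052) and Cd55 (-1.27, SE 0.23, adjusted p = 0.00779) were lower in XX. Tmem178 was higher in XX (1.47, SE 0.18, adjusted p = 0.000974), but not in stromal-like cells alone (-0.714). In stromal-like cells alone, 3 of the 10 passed, where 2.15% of all genes did, and Cd55 did not (adjusted p = 0.217), nor did it without XX WT replicate 1, XX WT replicate 2 or XY WT replicate 1 (adjusted p of 0.0521 to 0.0692). Cck did not pass without XX WT replicate 1 (-2.91, adjusted p = 0.0519). Adcy7 differed by -6.31 without passing (adjusted p = 0.104), and DESeq2 gave an adjusted p of 0.00668.

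Between XX and XY -KTS KO, none of the 10 genes passed the test with edgeR or DESeq2, where 0.0338% of all genes did, and 1 of them had an unadjusted p under 0.05. That gene was Cd55, lower in XX by 0.77 on the log2 scale (SE 0.23, adjusted p = 0.973), with both XX libraries below both XY libraries. For the other 9 the log2 difference lay between -0.478 and 0.239, with SEs of 0.16 (Tmem178) to 1.64 (Adcy7). Between XX and XY +KTS KO, none passed with either tool, where 0.0394% of all genes did, and 2 had an unadjusted p under 0.05.

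**Figure D4:**
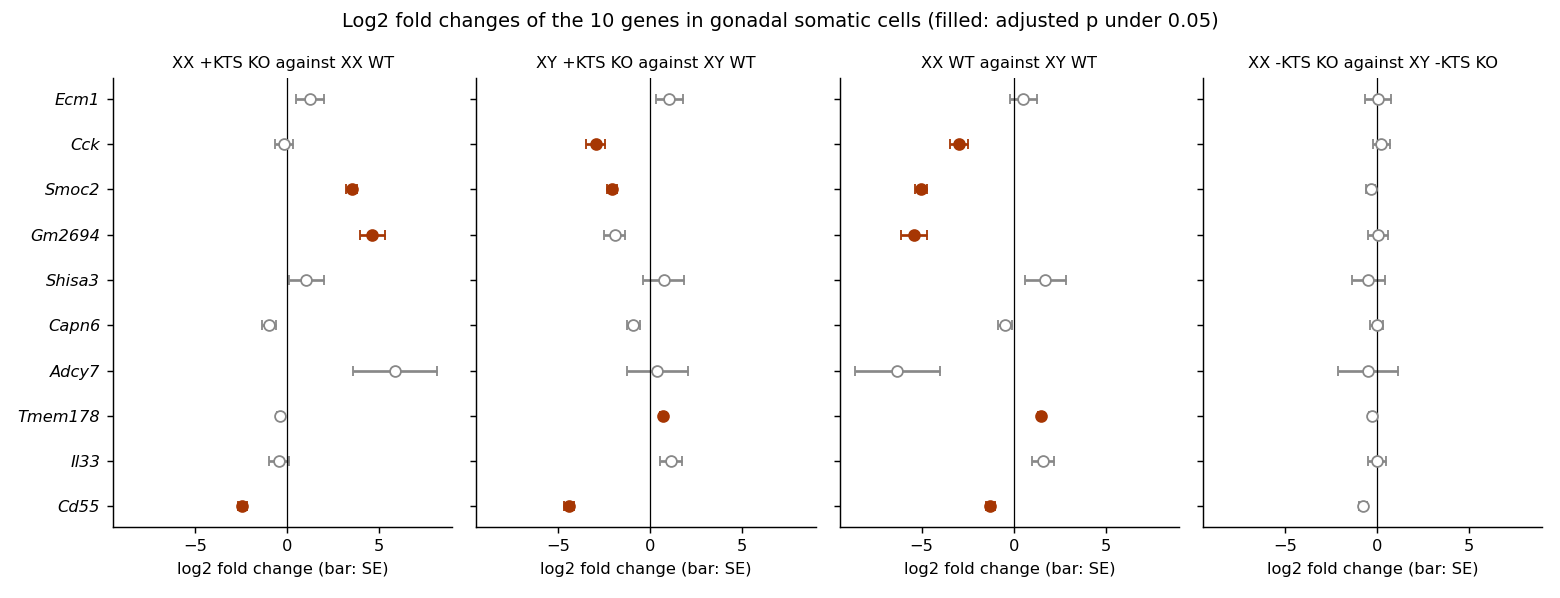
Log2 fold changes of the 10 genes, with SE bars, in XX +KTS KO against XX WT, XY +KTS KO against XY WT, XX WT against XY WT and XX -KTS KO against XY -KTS KO (filled points passed at an adjusted p under 0.05). Smoc2 and Gm2694 are lower in XX WT than in XY WT and at -0.35 and 0.05 between the -KTS KO sexes.

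Adcy7 was looked at in further cells because its libraries split. Immune-like cells held it in each library, at 17.5 to 62.4 CPM in the 8 high libraries and at 19.4 to 60.2 CPM in the 4 low ones (10 to 28 cells each). Coelomic epithelial-like cells were at 0.26 to 0.41 CPM in the low libraries and 13.3 to 34.9 CPM in the high ones, and stromal-like cells at 0.37 to 0.55 CPM and 8.63 to 29.9 CPM. Erythroid-like cells held 0.90 to 4.43 CPM in the 12 libraries, more than the gonadal somatic cells of the 4 low ones. Among the genes most like it over the 12 libraries by Pearson r on the log2(CPM + 1) scale, Fam32a (0.87) and Ubxn8 (0.84) were among the 3 ranked highest of 9845 genes at a mean of at least 5 CPM, and both lie on chromosome 8, as does Adcy7 (chr8:88272403-88329962). Their levels ranged less: Fam32a was at 81.9 to 104 CPM in the 4 low libraries and at 122 to 182 CPM in the others. Of the 27 genes most like the other 9, 1 lay on the chromosome of its gene, Cbln1 for Gm2694.

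**Figure D5:**
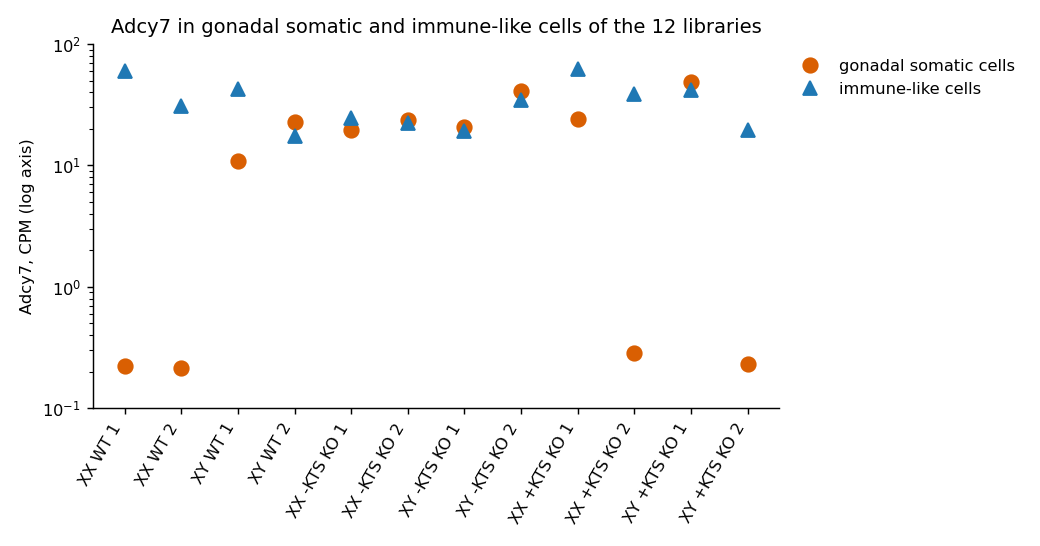
Adcy7 in gonadal somatic and in immune-like cells of the 12 libraries, in CPM on a log axis. The 4 libraries at 0.22 to 0.29 CPM in gonadal somatic cells are both XX WT libraries and replicate 2 of XX and XY +KTS KO, and their immune-like cells are at 19.4 to 60.2 CPM.

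By the same measure, the genes most like Il33 included Metrnl and Gas1 (r of 0.98 and 0.98), those most like Capn6 were Gucy1a1, Cdc42ep3 and St6galnac3 (0.98, 0.98 and 0.97), and those most like Shisa3 were Cdh10, Smug1 and Zfp120 (0.98, 0.97 and 0.97). Gm2694 was most like Cbln1 (0.98) and Hapln1 (0.95). Among the 10 genes themselves, Ecm1 and Shisa3 (0.98), Il33 and Tmem178 (0.97) and Il33 and Shisa3 (0.95) were closest, Gm2694 and Smoc2 were at 0.94, and Gm2694 and Tmem178 were least alike (0.10). Clusters and libraries share genotype and sex, so these coefficients are descriptions.

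Outside the gonadal somatic cells, germ cells and endothelial cells were tested for -KTS KO against WT, averaged over the sexes. In germ cells Capn6 passed, 1 of 9 genes tested, where 0.0436% of all genes did: it was at 2.36 CPM against 0.176 CPM (log2 fold change of 3.78, SE 0.48, adjusted p = 0.0283), and its level in erythroid-like cells of -KTS KO was 0.46 to 26.6 CPM. Capn6 held 22 to 190 germ cell UMIs in the -KTS KO libraries and at most 8 in any other library. It passed the filter on low counts only through -KTS KO, the group that chose it, so the call is not separate support. With a replicate block it did not pass (adjusted p = 0.0699 by edgeR). In endothelial cells Capn6 passed, 1 of 6 tested, where 9.3% of all genes did, at 33 against 30 UMIs in all (log2 fold change of 2.13, SE 0.62, adjusted p = 0.0436). With DESeq2 it did not pass there (adjusted p = 0.054). In XY the -KTS KO libraries (1.69 and 4.14 CPM) overlapped those of WT (2.25 and 2.87 CPM). In XX they were at 4.34 and 7.74 CPM, against WT libraries with 0 and 3 UMIs. The +KTS KO libraries held Capn6 at 0 to 0.875 CPM in endothelial cells. Only -KTS KO libraries were above 2.87 CPM, and Capn6 passed the filter on low counts through them. The endothelial call is therefore not separate support either. The Capn6 levels of germ cells (1.18 to 4.99 CPM) and endothelial cells (1.69 to 7.74 CPM) in the 4 -KTS KO libraries lay below that of the erythroid-like cells of the same library in 3 of the 4 and above it in XX -KTS KO replicate 1, whose erythroid-like cells held 1 UMI. The part of free RNA in these calls was not tested, and each call was lost on leaving out any of 7 of the 8 libraries. Gm2694 was at 25.8 to 45.9 CPM in the germ cells of the 12 libraries (at most 17.3 CPM in erythroid-like cells), and Ecm1 at 22.2 to 82.3 CPM in endothelial cells (at most 23.2 CPM in erythroid-like cells), each above the erythroid-like cells of its own library. Ecm1 passed in germ cells under some alternatives only. With no library left out, these were DESeq2 (2.16, adjusted p = 0.00314), no filter (2.15, adjusted p = 2.26e-07 by edgeR) and doublets kept (2.83, adjusted p = 0.00107 by edgeR). Without XX -KTS KO replicate 1 the log2 fold change of Ecm1 in germ cells was 2.42. In endothelial cells with no filter, Cck and Gm2694 also passed, and both were lower in -KTS KO. Their log2 fold changes were -2.56 and -1.996 (adjusted p = 0.000157 and 1.32e-05 by edgeR).

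Relatives of the 10 genes were listed by family (75 genes, of which 62 were tested): SPARC proteins, the cholecystokinin pathway, Shisa proteins, calpains, adenylyl cyclases, the interleukin-33 receptor and interleukin-1 family, and complement regulators, with Cbln1 and Tmem178b. In XX -KTS KO against XX WT 10 rose and 11 fell, where 6.62% of all genes rose and 9.35% fell. In XY, 12 rose and 11 fell, where 11% rose and 12.3% fell. The families thus moved in both directions, and their median log2 fold change was -0.08 in XX and -0.12 in XY. Fewer of these genes were called on leaving out a library, as given at the end. Spock2 and Smoc1, relatives of Smoc2, fell (by 2.81 and 2.10 in XX, by 2.06 and 1.48 in XY), as did Shisa2 (by 2.36 and 2.60). Of 7 genes tested of the SPARC list 1 rose and 2 fell in XX, and 1 rose and 3 fell in XY, and of 10 of the Shisa list 0 rose and 3 fell in XX, and 2 rose and 1 fell in XY. Sparcl1 rose (0.69 and 0.91), and Shisa6 rose in XY (1.24). Cpe and Pam, which process peptide hormones such as cholecystokinin, fell by 1.41 and 1.40 in XX and 1.36 and 1.38 in XY. Of 6 genes tested of the cholecystokinin list 1 rose and 3 fell in XX, and 0 rose and 3 fell in XY. Adcy2 rose (2.45 and 2.52), as did Cd55b (2.74 and 2.27) and Tmem178b (3.30 and 2.64), whereas none of 7 genes of the interleukin-33 receptor list passed in either sex with edgeR. Of 9 adenylyl cyclases tested 2 rose and 1 fell in XX, and 3 rose and 0 fell in XY. Capn1 fell (by 1.65 and 1.00) among the calpains, and Capn11 (3.16 in XX) and Capn3 (2.28 in XY) rose. Of 11 genes tested of the calpain list 2 rose and 1 fell in XX, and 2 rose and 2 fell in XY. Among complement genes, Clu fell (by 2.26 and 2.60), and of 10 tested 2 rose and 1 fell in XX, and 3 rose and 2 fell in XY.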

How the data were processed

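Single-cell 3' gene expression was measured in 12 libraries of E12 mouse gonads, 2 for each of 6 groups. The authors deposited UMI counts per gene and cell, made with Cell Ranger 6.0 on mm10 per the submitters' notes, and the values are raw counts with no normalization. The kit is given as v2 in the labels and v3 in the methods. Whether counting used the strand is not given in the sources used here. Following the study's methods, cells needed 1000 detected genes or more, with mitochondrial UMIs not above 10%. The study removed doublets with DoubletFinder; here barcodes with the highest Scrublet scores (0.8% per 1000 barcodes) were left out instead, ranked by score because Scrublet's own threshold marked 3 or fewer barcodes in 9 of 12 libraries. Cells were clustered with sctransform 0.4.2 and Seurat 5.3.0 (3000 genes, 50 components, 20 neighbours, resolution 0.8), and clusters were named from marker lists. UMIs were summed per library over gonadal somatic, germ or endothelial cells and tested with edgeR 4.0.16 (TMM, quasi-likelihood test, one fit over the 6 groups, R 4.3.3), and p-values were adjusted by Benjamini-Hochberg over all genes tested, with a threshold of 0.05. SEs were computed from the F statistic and are approximate. The scripts were tested on simulated data. DESeq2 1.42.0, RLE size factors in place of TMM, no filter, a replicate block, other cells and each library left out were the alternatives, and those restricted to stromal-like cells, to the larger endothelial cluster or without small clusters were added after seeing the data. Nothing in the labels says that the libraries of a group came from separate litters, so p-values measure only the spread between these libraries. The 10 genes and all lists were chosen with earlier results of these data known. Named genes are the 10, at most 3 called genes per family with the largest change, the 3 most like each of the 10 by Pearson r, and Wt1. Replicate numbers were not used to pair the libraries in the main fit. Correlations of deviations ran from -0.343 to 0.421 over 15 group pairs, 5 of them over 0.1, which cannot show whether particular groups were paired. Adcy7, Ecm1 and Shisa3 moved together by replicate number in both +KTS KO sexes, as did Cck and Gm2694 in -KTS KO. Smoc2 and Shisa3 did not do so in -KTS KO. Results for a few genes are not reported here.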

Additional observations from a re-analysis of the deposited data

Results flagged for a closer look

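The effect of losing +KTS differed between the sexes for 4 of the 10 genes in the interaction test of edgeR. All 4 also differed between the WT sexes, which the interaction takes in, and none of the 10 passed between the +KTS KO sexes. The difference of the log2 fold changes, XX minus XY, was 5.60 for Smoc2, 6.575 for Gm2694, 1.988 for Cd55 and -1.075 for Tmem178, with 2 libraries in each group. Smoc2 also moved in opposite directions without -KTS, where both XX -KTS KO libraries lay above both XX WT libraries (log2 fold change of 4.047) and both XY -KTS KO libraries lay below both XY WT libraries (-0.633). That difference was not tested, because the contrast chose the gene. With 2 libraries in a group, no search for outlying libraries was made.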

How the results depend on the processing

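The 20 log2 fold changes of the 10 genes between -KTS KO and WT kept their direction under 220 alternatives, although Gm2694 in XX moved from 4.54 to 2.29 when all kept cells were summed. In stromal-like cells alone, Tmem178 turned to -0.815 in XY +KTS KO, to 1.59 in the interaction and to -0.714 between the WT sexes, and 1 gene passed the interaction and 3 the test between WT sexes, against 4 and 5. The count of genes called in germ cells, 1, became 3 with DESeq2, 6 with no filter, 0 with a replicate block and 3 with doublets kept, and that in endothelial cells, also 1, became 0 with DESeq2, 3 with no filter, 2 with doublets kept and 2 in the larger cluster. The genes added in endothelial cells with no filter, Cck and Gm2694, were lower in -KTS KO, whereas Capn6 was higher. With the replicate block, Adcy7 in XY +KTS KO was -0.47, against 0.39, and its cause was not tested, nor that of the others here. Leaving out each library in turn gave -0.32 to 1.99 for Ecm1 and -2.14 to 1.97 for Shisa3 in XX +KTS KO, -6.17 to 1.38 for Adcy7 in XY +KTS KO, 2 to 4 genes in the interaction, 3 to 5 between the WT sexes, 11 to 13 family genes in XX (21 with all libraries) and 15 to 17 in XY (23), 0 to 2 in germ cells and 0 to 1 in endothelial cells. Over all genes, calls in XX +KTS KO (882) were 1488 with DESeq2, 1333 with no filter and 447 with all kept cells, and in the interaction (682) 1499, 1197 and 251. Calls between the -KTS KO sexes (6) were 18 with DESeq2 and 11 with no filter, and between the +KTS KO sexes (7) 31 and 18. Summing all kept cells left 1203 of 2324 calls between the WT sexes, 1463 of 2834 in XX -KTS KO and 2409 of 4140 in XY -KTS KO. Stromal-like cells alone gave 158 calls in XX +KTS KO, 1407 in XY +KTS KO (2160), 45 in the interaction and 330 between the WT sexes. Germ cell calls (6) were 140 with DESeq2, 604 with no filter, 3 with other size factors, 3 with the block and 18 with doublets kept, and endothelial calls (1003) were 395 in the larger cluster. Leaving out a library gave 149 to 283, 704 to 3005, 164 to 1521, 786 to 1946, 1125 to 1425, 2131 to 2675, 5 to 7, 6 to 123, 0 to 8 and 454 to 927 calls in XX +KTS KO, XY +KTS KO, the interaction, the WT sexes, XX -KTS KO, XY -KTS KO, the -KTS KO sexes, the +KTS KO sexes, germ cells and endothelial cells. Some calls were lost on leaving out a library, with the direction kept: Gm2694 in XX +KTS KO without either XX WT library, Tmem178 in XY +KTS KO without either XY WT library or replicate 2, and Cck between the WT sexes without XX WT replicate 1. Having 2 libraries in a group limits what the tests can detect.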
